A study of Mus musculus with 4 samples.

Results

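The splicing events described here lie in 6 mouse genes of phosphoinositide turnover, endocytosis and podosome assembly: Pikfyve, Ocrl, Synj1, Epn1, Sh3gl3 and Sh3pxd2a. They are every event listed for these genes in a deposited table of events that differed between the groups, 7 of its 1075 events and 6 of its 869 genes. The events were chosen by gene from a table that the authors had selected on the PSI of these same libraries, since it lists an event only where each control library lies more than 5 points from each NOVA2-overexpressing library, so that a difference between the groups is how each event came to be listed. The values are therefore given as a description, without a test. Among the 7 events the smallest gap between libraries of different groups was 6.56 points, in the Sh3pxd2a intron, and over all listed events it was 5.01 points. Events that fell short of the filter were not analysed here.

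RNA-seq was performed on 2 groups of cultured mouse endothelial cells (ECs), the cells that line blood vessels, with 2 libraries each. Control ECs were transduced with a lentiviral HA vector, and NOVA2-overexpressing ECs with a lentivirus carrying HA-tagged human NOVA2 under the CMV promoter. The NOVA2-overexpressing ECs were kept under puromycin and grown sparse, and the density of the control cultures is not given in the sources used here. The transgene is thus a human protein, driven in mouse cells by a viral promoter, and the sources do not say whether the duplicates were separate cultures. NOVA2 itself and the markers of ECs were not analysed here, since the table holds splicing events and no gene levels. Each event has a percent spliced in (PSI), which is the share of transcripts of the gene that include the exon, use the splice site or retain the intron, and dPSI is the mean PSI of the NOVA2-overexpressing ECs minus that of control ECs, in points. The reads behind the listed events summed to 124374 and 155864 in the control libraries and to 193436 and 182795 in the NOVA2-overexpressing libraries. The control libraries thus had fewer reads over the table as a whole, which was not so for every event.

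Phosphoinositides are membrane lipids whose inositol head group is phosphorylated and dephosphorylated by dedicated kinases and phosphatases, and each endocytic membrane carries its own form. Clathrin-coated pits form where adaptors bind the lipid PI(4,5)P2 at the plasma membrane, and the lipid is removed as the vesicle sheds its coat. Phosphoinositides also recruit scaffold proteins of podosomes, actin-rich adhesions that degrade matrix and that ECs form during vessel growth. NOVA2 is an RNA-binding splicing factor that recognizes YCAY tetramers, with Y for a pyrimidine.

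The genomic sequence of the alternative region is shown for 5 of the genes so that the short exons, the neighbouring acceptors and the YCAY tetramers can be read beside the values. All were taken from the mouse genome build mm9, the build of the deposited table, and are written 5′ to 3′ on the transcribed strand. Capitals mark every YCAY, which with T first is TCAT or TCAC. With C first it is CCAT or CCAC. The Pikfyve sequence is chr1:65239008-65239240 on the plus strand, with the alternative exon at bases 101 to 133. The Ocrl sequence is chrX:45309287-45309455 on the plus strand, with the exon at bases 101 to 124. The Synj1 sequence is chr16:90974271-90974420 on the minus strand, where the 9 nt between the acceptors are bases 101 to 109. The Epn1 sequence is chr7:5044814-5045088 on the plus strand, with the exon at bases 101 to 175. The Sh3pxd2a sequence is chr19:47357411-47357694 on the minus strand, with the exon at bases 101 to 184.
Pikfyve: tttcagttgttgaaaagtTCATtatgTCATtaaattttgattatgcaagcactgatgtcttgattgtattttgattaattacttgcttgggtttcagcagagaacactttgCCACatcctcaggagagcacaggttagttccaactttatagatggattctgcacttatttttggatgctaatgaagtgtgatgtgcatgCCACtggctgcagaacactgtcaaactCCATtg
Ocrl: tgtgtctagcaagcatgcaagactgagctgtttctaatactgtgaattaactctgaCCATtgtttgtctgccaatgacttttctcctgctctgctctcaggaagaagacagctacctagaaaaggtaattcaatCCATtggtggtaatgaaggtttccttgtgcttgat
Synj1: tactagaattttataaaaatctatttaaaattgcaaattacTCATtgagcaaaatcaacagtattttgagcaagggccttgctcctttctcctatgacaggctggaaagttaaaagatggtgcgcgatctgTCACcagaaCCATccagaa
Epn1: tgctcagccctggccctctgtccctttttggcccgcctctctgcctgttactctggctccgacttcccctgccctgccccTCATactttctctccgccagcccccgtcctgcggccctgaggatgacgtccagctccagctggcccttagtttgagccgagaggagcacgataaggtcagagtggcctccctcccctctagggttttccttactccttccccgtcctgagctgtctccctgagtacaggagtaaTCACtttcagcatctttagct
Sh3pxd2a: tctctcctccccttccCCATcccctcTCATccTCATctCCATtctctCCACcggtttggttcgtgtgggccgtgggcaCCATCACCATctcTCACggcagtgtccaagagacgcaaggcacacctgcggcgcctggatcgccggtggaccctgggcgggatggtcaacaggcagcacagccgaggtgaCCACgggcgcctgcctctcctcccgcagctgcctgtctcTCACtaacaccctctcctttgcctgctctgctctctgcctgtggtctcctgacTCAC

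In the NOVA2-overexpressing ECs, exons of the lipid kinase gene Pikfyve, the lipid phosphatase gene Ocrl and the endophilin gene Sh3gl3 were included more and an acceptor of the phosphatase gene Synj1 was used more, whereas exons of the adaptor gene Epn1 and the scaffold gene Sh3pxd2a were included less. A dPSI of at least 10 points was reached by 6 of the 7 events, 4 in the higher and 2 in the lower direction, in a table where 53.1% of events pass 10 points in either direction, 33.0% higher and 20.1% lower. Alternative acceptors and donors were all listed with a higher PSI, so the shares by direction partly reflect how sites were listed. Of the 7 events, 3 reached 15 points, as did 17.8% of all listed events, and 2 reached 20 points, as did 5.86%. The event outside 10 points was the Sh3pxd2a intron, at 7.5 points, and the event nearest inside was the Sh3gl3 exon, at 13.2 points. The median absolute dPSI was 14.6 points over the 7 events and 10.3 points over all listed events. In the library with the fewest reads, the median number of reads was 57 over the 7 events and 46 over all listed events.

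**Figure D1:**
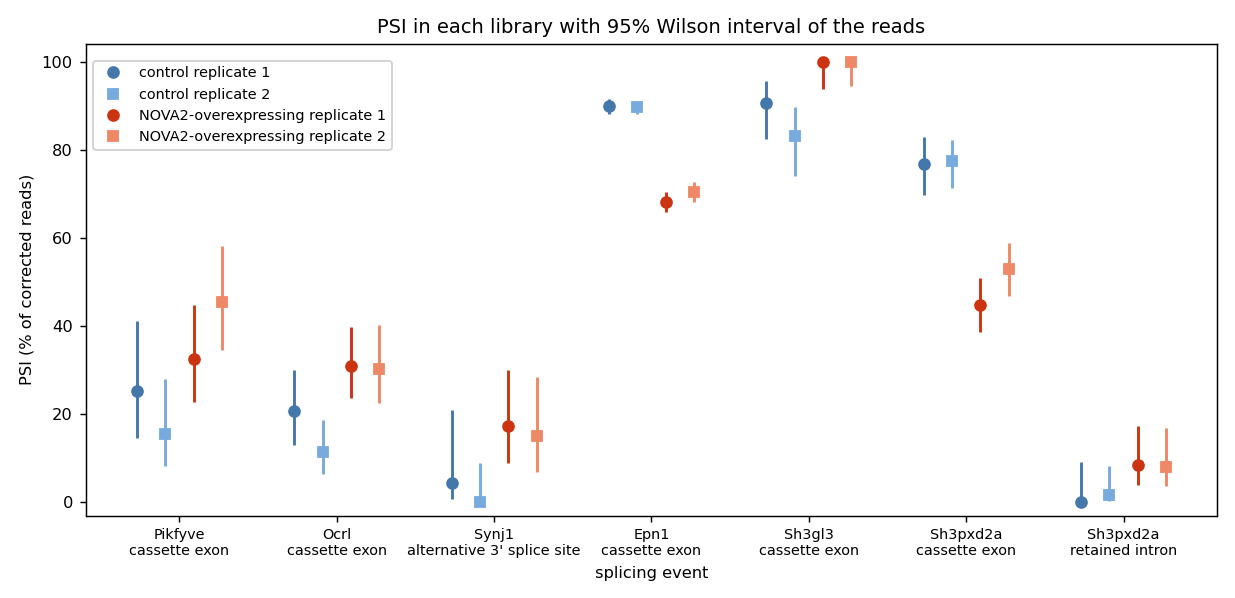
PSI in percent (vertical axis) of the 7 events in each library, with blue symbols for control ECs, red symbols for NOVA2-overexpressing ECs (circles for replicate 1, squares for replicate 2) and vertical bars for the 95% Wilson interval of the reads. The bars of the groups are apart for the Epn1 exon and for the Sh3pxd2a exon, at 68.2% and 70.5% against 89.8% and 89.7% and at 44.7% and 53.0% against 76.7% and 77.4%.

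Pikfyve encodes the kinase that makes PI(3,5)P2 on endosomes and lysosomes. Its alternative exon (gene ENSMUSG00000025949.9; mm9 chr1:65239108-65239140, plus strand) is 33 nt long, which is 11 codons, and is exon 4 of 42 of the annotated transcript that holds it. The other annotated transcript of the gene skips it, and neither form meets a stop codon before the annotated end. Control ECs had a PSI of 25.2% and 15.6%, and NOVA2-overexpressing ECs of 32.6% and 45.5%. Both NOVA2-overexpressing libraries were above both control libraries, but the duplicates lay far apart in each group. The mean was 20.4% ± 6.76 (SD, n = 2) in control ECs and reached 39.1% ± 9.15 (SD, n = 2) with NOVA2, a dPSI of 18.7 points. Without NOVA2-overexpressing replicate 2 the dPSI was 12.2 points.

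The reads of the Pikfyve exon were uneven between its ends. A cassette exon is counted from the junction that enters it, the junction that leaves it and the junction that skips it. The table does not name these junctions, and their order was taken from the vast-tools format, here and for the other exons and the intron below. The entering junction had 2, 3, 2 and 8 reads in control 1, control 2, NOVA2 1 and NOVA2 2, whereas the leaving junction had 11, 8, 26 and 28. The skipping junction had 26, 40, 39 and 29 reads in the same libraries. From the leaving junction alone, without the mappability correction, the PSI was 29.7% and 16.7% in control ECs and 40% and 49.1% in NOVA2-overexpressing ECs, a dPSI of 21.4 points. From the entering junction alone, likewise uncorrected, it was 7.14% and 6.98% in control ECs and 4.88% and 21.6% in NOVA2-overexpressing ECs. On that junction the groups overlapped, with NOVA2-overexpressing replicate 1 below both controls, and the dPSI was 6.19 points. Both junctions together gave 16.3 points uncorrected. The deposited quality marks call the junctions of this exon unbalanced in every library, as they do for 6 of the 299 simple cassette exons of the table (2.01%). The part of this imbalance in the dPSI was not tested.

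Ocrl, on the X chromosome, encodes an inositol polyphosphate 5-phosphatase that removes PI(4,5)P2 and that is mutated in Lowe syndrome. Its alternative exon (ENSMUSG00000001173.9; mm9 chrX:45309387-45309410, plus strand) is 24 nt long, or 8 codons, and is exon 19 of 24 of the annotated transcript that holds it. Of the 7 annotated transcripts, 1 has this exon, 2 share its acceptor but end elsewhere, and 0 are annotated to skip it. The PSI was 20.7% and 11.5% in control ECs and 31.0% and 30.3% in NOVA2-overexpressing ECs. The NOVA2-overexpressing libraries lay within 1 point of each other and at least 9.6 points above either control library. The mean rose from 16.1% ± 6.51 (SD, n = 2) to 30.7% ± 0.502 (SD, n = 2), a dPSI of 14.6 points.

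Both junctions of the Ocrl exon followed the same order of groups. The entering junction had 10 and 5 reads in control ECs and 18 and 14 reads in NOVA2-overexpressing ECs. The leaving junction had 7 and 7 reads in control ECs and 20 and 16 reads in NOVA2-overexpressing ECs. Skipping was read 67 and 95 times in control ECs and 87 and 71 times in NOVA2-overexpressing ECs. The deposited PSI is corrected for the positions to which a read can map, which for so short an exon multiplied the odds of inclusion by 2.06. From the junction reads as counted, the PSI was 11.3%, 5.94%, 17.9% and 17.4% in control 1, control 2, NOVA2 1 and NOVA2 2. Uncorrected, the dPSI was 9.08 points, under 10 points but in the same direction, and the entering and leaving junctions alone, also uncorrected, gave 7.81 and 10.4 points. As deposited, the dPSI was 9.96 points without control replicate 2, the library with the lowest PSI.

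Synj1 encodes synaptojanin 1, a phosphatase that dephosphorylates PI(4,5)P2 during uncoating of clathrin-coated vesicles. The event (ENSMUSG00000022973.10, chromosome 16, minus strand of mm9) is a choice between acceptors at positions 90974320 and 90974311, which are 9 nt apart and are both preceded by AG. The first gives an exon of 166 nt and is used in 2 annotated transcripts. The second gives an exon of 157 nt and is used in 4, of 11 annotated transcripts of the gene. The PSI is that of the second acceptor, with 1 of 23 reads and 0 of 39 reads in control ECs and 8 of 47 reads and 6 of 41 reads in NOVA2-overexpressing ECs. This is a PSI of 4.47% and 0% in control ECs, where 0 of 39 reads allows a share of up to 7.69%, and of 17.4% and 15% in NOVA2-overexpressing ECs. Use of the acceptor 9 nt downstream was thus rare in control ECs and read in both NOVA2-overexpressing libraries. The means were 2.24% ± 3.16 (SD, n = 2) and 16.2% ± 1.72 (SD, n = 2), a dPSI of 14.0 points. All 119 alternative acceptor events of the table are listed with a higher PSI, so that their direction follows from which site was listed, and the same change is a fall of the first acceptor from 97.8% to 83.8%. Coverage was scored as very low in control 1 and low in control 2, and the Wilson intervals of control 1 (0.772% to 21.0%) and of both NOVA2-overexpressing libraries overlapped.

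Epn1 encodes epsin 1, a clathrin adaptor that binds PI(4,5)P2 and ubiquitinated receptors. Its alternative exon (ENSMUSG00000035203.8; mm9 chr7:5044914-5044988, plus strand) is 75 nt long, or 25 codons, and is exon 6 of 12 of an annotated transcript that holds it. Of 7 annotated transcripts, 3 include it and 1 skips it. The exon was skipped in 64 of 1194 junction reads and 88 of 1620 in control ECs, and in 324 of 1713 and 264 of 1526 in NOVA2-overexpressing ECs. Since inclusion is read at both junctions and skipping at 1, these counts give a PSI of 89.8% and 89.7% in control ECs and of 68.2% and 70.5% in NOVA2-overexpressing ECs. The dPSI was -20.4 points, with means of 89.8% ± 0.0919 (SD, n = 2) and 69.3% ± 1.63 (SD, n = 2), and the share of transcripts without the exon rose to 30.7%. As counted, the entering junction alone gave -21.7 points and the leaving junction alone -19.3 points. This was the best covered of the 7 events.

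Sh3gl3 encodes endophilin A3, a protein of the family that bends membranes through a BAR domain and recruits synaptojanin and dynamin through an SH3 domain. Its alternative exon (ENSMUSG00000030638.6; mm9 chr7:89416790-89416862, plus strand) is 73 nt long, not a multiple of 3, and is exon 3 of 9 of the only annotated transcript. Left out of this transcript, the reading frame shifts, and the first stop codon begins 15 nt after the new junction, in exon 4 and 636 nt before the last exon junction. Skipping was read 4 times in 77 junction reads and 8 times in 84 in control ECs, and in 0 of 57 and 0 of 66 in NOVA2-overexpressing ECs. The PSI was 90.5% and 83.1% in control ECs and 100% in both NOVA2-overexpressing libraries. In these, 0 skipping reads allow a share of up to 5.26% and 4.55% of the junction reads. The share of transcripts that skip may be larger than that, since inclusion is read at both junctions and skipping at 1. The dPSI was 13.2 points, from a mean of 86.8% ± 5.22 (SD, n = 2) in control ECs. Without control replicate 2 it was 9.5 points. Both inclusion junctions had similar reads, 35 and 38 in control 1 and 30 and 27 in NOVA2 1.

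Sh3pxd2a encodes TKS5, the PX and SH3 domain scaffold that binds phosphoinositides and organizes podosomes and invadopodia. Its alternative exon (ENSMUSG00000053617.4; mm9 chr19:47357511-47357594, minus strand) is 84 nt long, or 28 codons, and is exon 10 of 15 of the annotated transcript that holds it, while the other 2 annotated transcripts skip it. Neither form meets a stop codon before the annotated end. The PSI was 76.7% and 77.4% in control ECs and 44.7% and 53.0% in NOVA2-overexpressing ECs. The groups were at least 23.8 points apart, and the NOVA2-overexpressing duplicates differed more than the control duplicates. The dPSI was -28.3 points, from 77.1% ± 0.481 (SD, n = 2) to 48.8% ± 5.88 (SD, n = 2), and 5 of the 1075 listed events had a lower dPSI. Skipping was read 20 and 28 times in control ECs and 96 and 79 times in NOVA2-overexpressing ECs, against entering reads of 60, 89, 79 and 85 and leaving reads of 72, 103, 76 and 93 in control 1, control 2, NOVA2 1 and NOVA2 2. The number of skipping reads thus differed more between the groups than the number of reads at either inclusion junction.

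The other Sh3pxd2a event is an intron of 6109 nt (mm9 chr19:47388657-47394765, minus strand). Of the 3 annotated transcripts, 2 splice this intron out, and it holds no annotated exon or transcript start. Its retention was listed at 0% and 1.58% in control ECs and at 8.44% and 8.14% in NOVA2-overexpressing ECs, a dPSI of 7.5 points. The means were 0.790% ± 1.12 (SD, n = 2) and 8.29% ± 0.212 (SD, n = 2). Retention is counted from reads across both exon-intron junctions, set against reads of the spliced junction. The first exon-intron junction had 0 reads in all 4 libraries, and the second had 0 and 2 reads in control ECs and 11 and 11 reads in NOVA2-overexpressing ECs. Spliced reads were 25 and 41 in control ECs and 39 and 42 in NOVA2-overexpressing ECs. The signal came from a single end of the intron, and reads within the intron body were listed at 0.200 in control 1 and 0 elsewhere. The deposited balance p-value of vast-tools, which is not a test of both ends alone, was 0.0247 in each NOVA2-overexpressing library. Of the 311 introns in the table, 23 (7.40%) have a junction with 0 reads in every library. Without the mappability correction, the dPSI was 19.1 points from the second junction alone, 0 from the first and 10.8 from both.

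**Figure D2:**
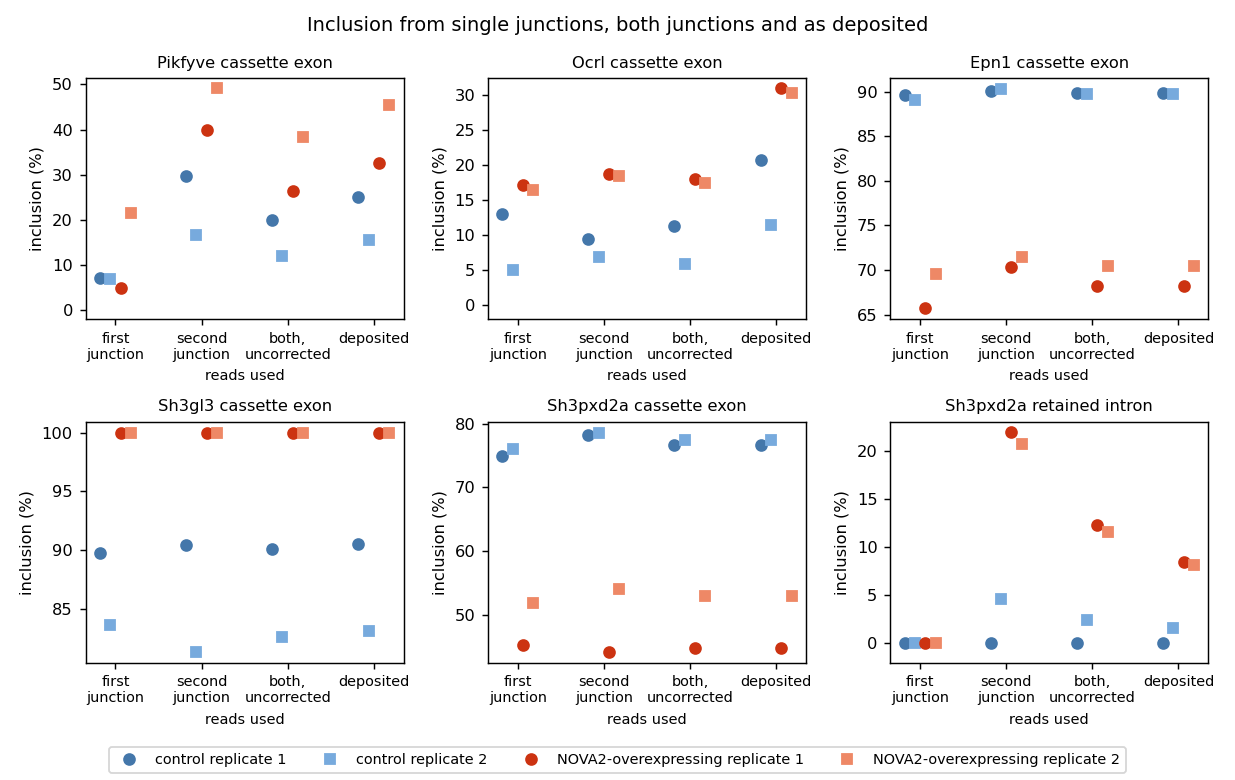
Inclusion in percent of the 5 cassette exons and the Sh3pxd2a intron in each library, from the first (entering) junction alone, the second (leaving) junction alone, both without the mappability correction and as deposited, with blue symbols for control and red for NOVA2-overexpressing ECs and with axes that differ between panels. For Pikfyve the entering junction gives values of 4.88% to 21.6% with overlapping groups, and the leaving junction values of 16.7% to 49.1%.

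The 95% Wilson intervals of the reads, which cover counting error at most, were apart between the groups for 2 of the 7 events. These were the Epn1 and Sh3pxd2a exons, and 11.1% of all listed events had separate intervals. For cassette exons inclusion is counted at both junctions, which makes the intervals too narrow. With the inclusion reads of cassette exons halved, the intervals were apart for the same 2 events. From all corrected reads, the Epn1 intervals ran from 88.0% to 91.5% and from 88.1% to 91.1% in control ECs. In NOVA2-overexpressing ECs they ran from 65.9% to 70.3% and from 68.2% to 72.7%. For the Sh3pxd2a exon they ran from 69.7% to 83.0% and from 71.3% to 82.3% in control ECs, and from 38.6% to 50.8% and from 46.8% to 58.9% in NOVA2-overexpressing ECs. For the other 5 events at least 1 control interval overlapped 1 interval of the NOVA2-overexpressing ECs.

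**Figure D3:**
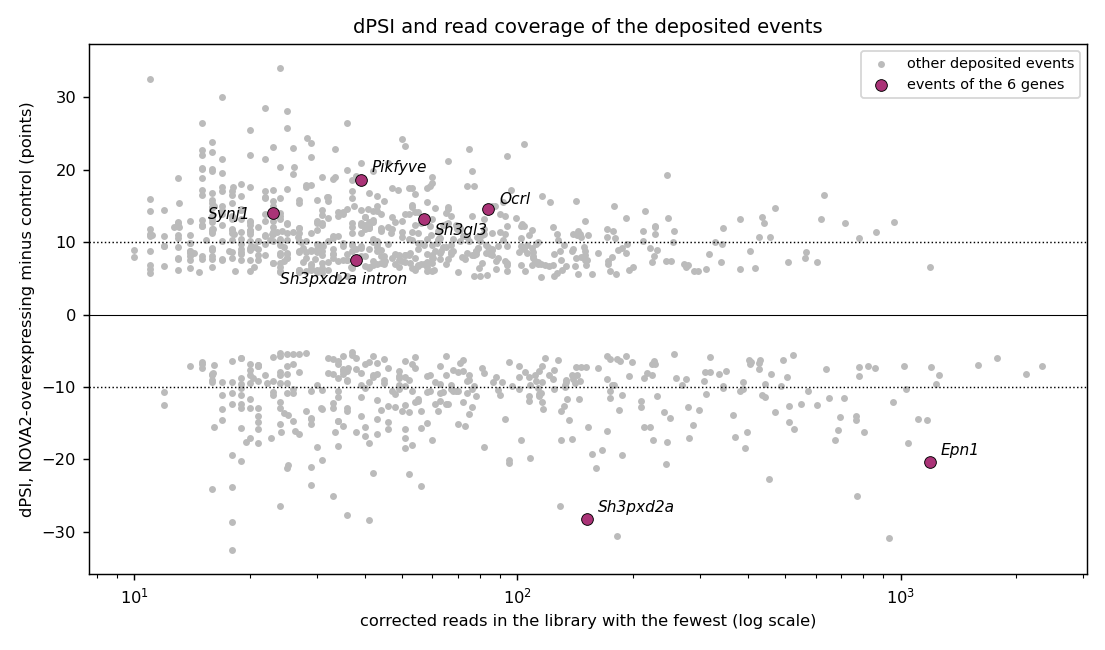
dPSI in points (vertical axis) against the corrected reads in the library with the fewest (horizontal log axis) for all 1075 listed events in grey and the 7 events in purple, with dotted lines at 10 points on either side of 0. Epn1 lies at 1194 reads and -20.4 points and the Sh3pxd2a exon at 152 reads and -28.3 points, while the other 5 lie between 23 and 84 reads.

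The regions of the Pikfyve, Ocrl, Epn1 and Sh3pxd2a exons were searched for YCAY over each exon and over windows of 200 nt of intron on either side of it, on the transcribed strand and with overlapping tetramers counted. Over the 549 cassette exons of the table, at least 1 tetramer was present in 94.5% of upstream windows, 78.5% of exons and 94.5% of downstream windows, with medians of 1.5, 1.66 and 1.5 per 100 nt. The upstream window of the Sh3pxd2a exon held 10, which is 5 per 100 nt, and 2.73% of the 549 exons had that density or a higher one. Most lay close to the exon, at 9 per 100 nt in the last 100 nt, as can be read in the printed sequence. Its exon held 0 and its downstream window 5. The upstream and downstream windows held 2 and 2 tetramers for Pikfyve, 2 and 3 for Ocrl and 2 and 3 for Epn1. Within the exons there was 1 in Pikfyve and 0 in Ocrl and Epn1. YGAY, a tetramer of the same form, was found upstream 0 times for Sh3pxd2a, 6 times for Pikfyve and 3 times each for Ocrl and Epn1. It is rarer in the upstream windows of the 549 exons, with a median of 0.787 per 100 nt against 1.5 for YCAY. The base composition of the windows was not taken into account. These matches describe the sequence, and binding of NOVA2 was not measured here.

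**Figure D4:**
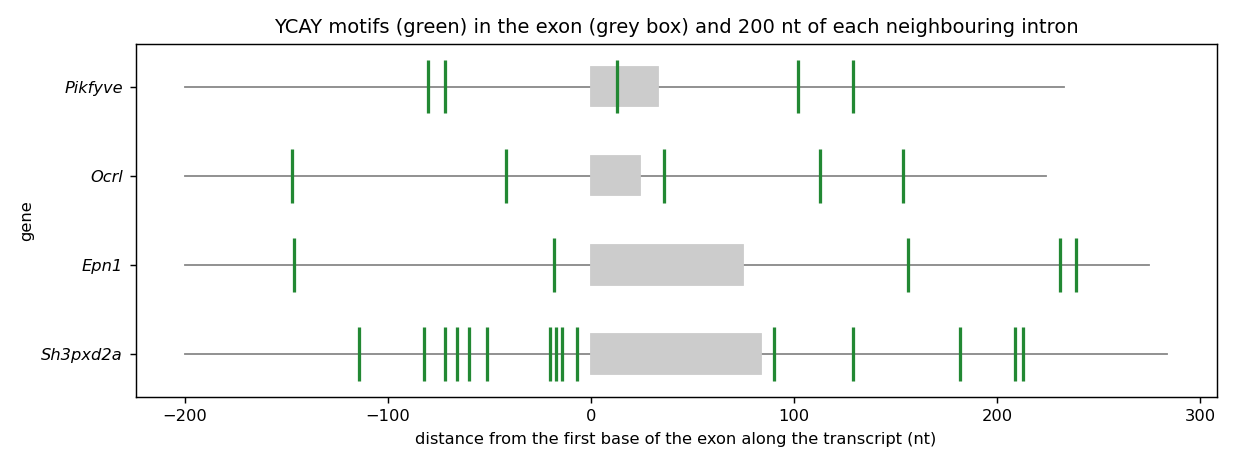
Positions of YCAY tetramers around the cassette exons of Pikfyve, Ocrl, Epn1 and Sh3pxd2a, in nt from the first base of the exon on the transcribed strand, with a grey box for each exon and green ticks for tetramers. The upstream 200 nt hold 10 ticks for Sh3pxd2a and 2 for each of the other exons.

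Other genes of the same pathways were taken from lists of phosphoinositide enzymes (74 genes), clathrin endocytosis (74 genes) and podosome components (50 genes), which share members. Of the 196 different genes, 20 had a listed event, 24 events in all, and 16 events passed 10 points, 9 with higher and 7 with lower PSI, where 53.1% of all listed events pass, 33.0% higher and 20.1% lower. Among the higher events are the Synj1 acceptor and an alternative donor of Reps1, whose direction follows from which site was listed. Apart from the 6 genes described above, 14 genes had 17 events, of which 10 passed 10 points, 5 in each direction. Among phosphoinositide enzymes these were 4 events, of which 2 passed 10 points. Both of the latter were scored very low for coverage, with 29 and 24.6 reads in the library with the fewest. Among genes of clathrin endocytosis they were 11 events, with 4 higher and 2 lower past 10 points. Both further events in podosome genes were lower. That of a retained intron was scored very low for coverage, with 19.6 reads in the library with the fewest.

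Dnm2, which encodes the dynamin that pinches off endocytic vesicles and is recruited by endophilins, had events of opposite direction in neighbouring exons of 139 nt each on chromosome 9. The PSI of the exon at mm9 chr9:21283343-21283481 was 84.3% and 86.1% in control ECs and 69.7% and 69.2% in NOVA2-overexpressing ECs, a dPSI of -15.8 points on 527 to 695 reads. The PSI of the exon at chr9:21284851-21284989 was 15.1% and 16.4% in control ECs and 29.6% and 29.0% in NOVA2-overexpressing ECs. This is a dPSI of 13.5 points on 435 to 680 reads. In each library the PSI of these exons were close to complements, as for a single choice between them, which was not tested. They are counted above as a lower and a higher event and may be a single change. Reps1 encodes an EH domain protein that binds epsins. An alternative donor of Reps1 had a PSI of 8.33% and 8.55% in control ECs and 22.5% and 21.1% in NOVA2-overexpressing ECs. Like the acceptors, all alternative donors were listed with a higher PSI, so the direction follows from which site was listed. Arhgef7, which encodes beta-PIX, had an exon of 225 nt with a PSI of 80.9% and 83.5% in control ECs and 66.4% and 65.6% in NOVA2-overexpressing ECs. In these 4 events the duplicates of a group were within 3 points of each other. Epn2, the paralogue of Epn1, is named after its values were seen: an exon of 73 nt had a PSI of 13.6% and 12% in control ECs and 6.75% and 6.72% in NOVA2-overexpressing ECs, a dPSI of -6.04 points.

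**Figure D5:**
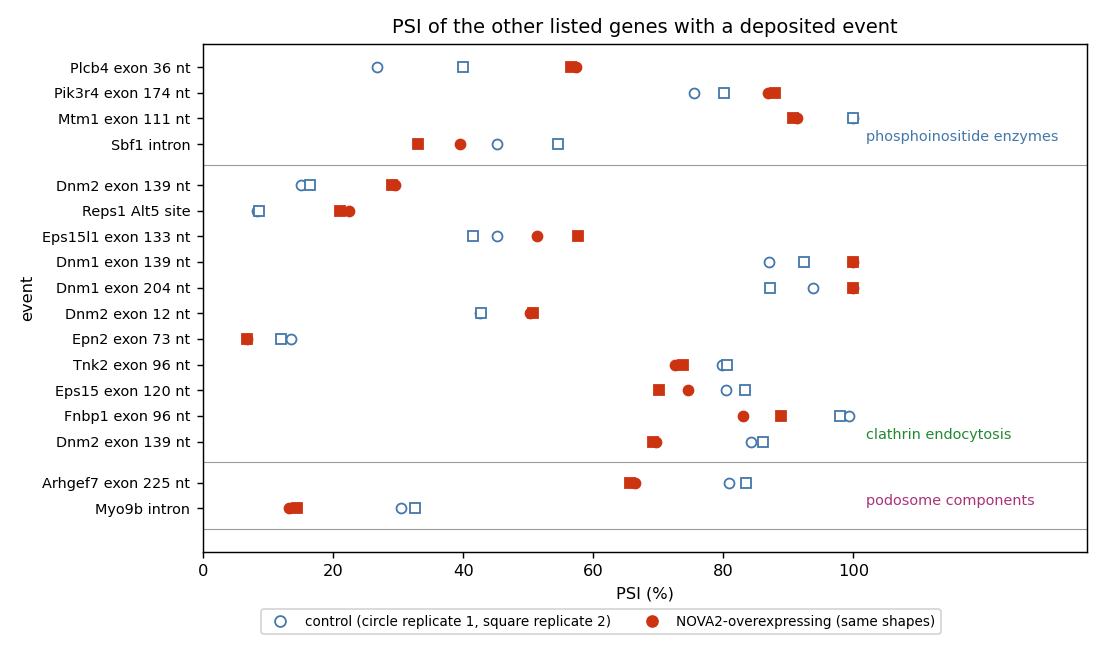
PSI in percent (horizontal axis) of the 17 listed events in the 14 other genes of the 3 lists, with open symbols for control and filled symbols for NOVA2-overexpressing ECs and with circles for replicate 1 and squares for replicate 2. The Dnm2 exons of 139 nt move in opposite directions, from 84.3% and 86.1% to 69.7% and 69.2% and from 15.1% and 16.4% to 29.6% and 29.0%.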

How the data were processed

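RNA-seq reads of 2 control and 2 NOVA2-overexpressing libraries were aligned by the authors to mm9 with vast-tools, and the deposited percent (PSI) of each event and library was used as given, with its quality string (coverage score, junction reads, corrected reads). The authors listed only events that differed by more than 5 points between every pair of libraries of different groups. Their dPSI column, which holds their own comparison, and 12 columns of values that match no sample of the series were not used.

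Mean PSI, SD and dPSI were computed with Python 3.11.15 and numpy 2.4.6, and Wilson intervals (95%) of the rounded corrected reads with scipy 1.17.1. The limit beside a share of 0 is 3 reads of the total. For a cassette exon this is a share of junction reads and not of transcripts. Corrected reads are not raw counts of molecules, and intervals and limits cover counting error at most. Plots were drawn with matplotlib 3.10.9. The correction factor is the geometric mean over libraries of the odds of inclusion in corrected reads divided by the odds in the junction reads as counted. Sequences and exons came from mm9 (NCBIM37) and the GENCODE vM1 annotation, and the sequence around the Sh3gl3 exon is not reported here.

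The 6 genes and the gene lists were chosen with earlier results of these data known, and no test was made on values the table had been filtered on. All events of the 6 genes are named. Of the other listed genes, the rule names per list the 3 events with the largest absolute dPSI among those of at least 10 points scored LOW or better for coverage in each of the 4 libraries, and any further gene is said to be named after its values were seen. Scripts were tested on simulated data. Alternatives were pooled reads, single junctions, uncorrected reads, omission of each library, other thresholds, coverage filters and intervals, and other motif windows, counting and letters.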

Additional observations from a re-analysis of the deposited data

How the results depend on the processing

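None of the dPSI values of the 7 events changed sign under the alternatives tried, though that of the Sh3pxd2a intron came to 0 in one of them. Single-junction values also lack the mappability correction, so they change both choices. From the entering junction alone the dPSI was 6.19 points for Pikfyve, 7.81 for Ocrl and -21.7 for Epn1. From both junctions uncorrected it was 16.3 points for Pikfyve and 9.08 for Ocrl, and the leaving junction of Ocrl gave 10.4. For the Sh3pxd2a intron it was 0 from the first junction, 19.1 from the second and 10.8 from both uncorrected. At thresholds of 15 and 20 points the count of events was 3 and 2, against 17.8% and 5.86% of all listed events. Without each library in turn the dPSI ranged from 12.2 to 25.1 points for Pikfyve, 9.96 to 19.2 for Ocrl, 11.7 to 16.2 for Synj1, -21.6 to -19.3 for Epn1, 9.5 to 16.9 for Sh3gl3, -32.4 to -24.1 for the Sh3pxd2a exon and 6.71 to 8.29 for its intron. Uncorrected reads left 6 events past 10 points, with the intron in and Ocrl out, an alternative chosen after seeing the data. No paired test was made, as none was made at all. Between libraries of the same replicate number, for 1 and 2 in turn, PSI differed by 7.4 and 29.9 points for Pikfyve, 10.3 and 18.8 for Ocrl, 13.0 and 15 for Synj1, -21.6 and -19.2 for Epn1, 9.5 and 16.9 for Sh3gl3, -32.1 and -24.4 for the Sh3pxd2a exon and 8.44 and 6.56 for its intron. Depth limits Synj1, Pikfyve and the intron most, with 23 to 73.1 reads per library. With 2 libraries a group the SD is itself poorly known, and gene levels were not analysed here.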

Other observations

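The correction that lowers the Ocrl dPSI below 10 points when left out was looked at in other short exons of the table. Of the 299 simple cassette exons, 15 are at most 33 nt long, Ocrl and Pikfyve among them, and their correction factor had a median of 1.75 and ranged from 0.991 to 3.18. Of these 15 exons, 12 passed 10 points as deposited, and 6 of the 12 also passed without the correction. Of the 230 exons longer than 60 nt, whose median factor was 1.00, 115 passed 10 points and 113 of them also passed without the correction. The factor was 2.06 for Ocrl, 1.35 for Pikfyve, 1.04 for Sh3gl3 and 1.00 for Epn1 and for the Sh3pxd2a exon.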
